A study of Mus musculus with 21 samples.

Results

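Neurons find, bind and hold on to each other through cell adhesion molecules, membrane proteins that reach across the synaptic cleft or along the axon. Of the 5544 genes with values in mouse cortex, 63 carried a symbol that fits the stems chosen for this group. The stems cover neurexins and their partners, LAR-type phosphatases and their partners, SynCAMs, contactins, the L1 family, NCAMs, IgLONs, Thy1 and Igsf genes. All 63 were tested, with no further filter. 5 of them, Lrrc40, Lrrc41, Lrrc45, Lrrc47 and Lrrc49, fit the stem Lrrc4 by their number alone and are not known as adhesion molecules, which leaves 58 adhesion genes. A further 20 annotated genes that fit the stems, among them Lrrtm1, Cntn5, Cntn6 and Slitrk6, were not analysed here. The group was set by name and not by any value, but with earlier results of these data known.

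The libraries came from the cortex of male C57BL/6 mice (C57Bl/6J in the study's methods) of 12 weeks, 24 h after the last procedure. High-frequency head impact (HF-HI) mice had received 5 mild closed-head impacts per day for 6 days, 30 in all, under isoflurane. Repeated isoflurane is shared by both groups, since the sham controls went through the sessions too and differ in having had no impact. There were 10 sham and 11 HF-HI libraries, each from the whole cortex of 1 mouse, of total RNA freed of ribosomal RNA.

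At the synapse, presynaptic neurexins and LAR-type receptor phosphatases bind a large set of postsynaptic partners, which include neuroligins, LRRTMs, SLITRKs and the NGL proteins. Latrophilins form a further set of contacts with teneurins and FLRTs. Along the axon, contactins, contactin-associated proteins and the L1 family anchor the membrane at the node of Ranvier and beside it, and IgLONs and NCAMs act in axon growth and contact. Paralogs within a family often serve different synapse types.

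The promoters of 4 adhesion genes are shown because these genes moved in opposite directions. They are the 2 highest and the 2 lowest among adhesion genes that kept their call under the correction for GC content described below and that have a single RefSeq promoter. Each run gives the 250 bases before the annotated start (RefSeq, GRCm38.p6), 5′ to 3′ on the strand of the gene, with matches to GC box, CRE, E-box or TATA motifs in capitals. The 2 genes that rose were Adgrl1 (chr8:83899848-83900097 on the plus strand, 68.8% GC) and Cadm3 (chr1:173367696-173367945 on the minus strand, 66.8% GC). The 2 genes that fell were Chl1 (chr6:103510626-103510875 on the plus strand, 52.4% GC) and Nrcam (chr12:44328635-44328884 on the plus strand, 72.4% GC).
Adgrl1: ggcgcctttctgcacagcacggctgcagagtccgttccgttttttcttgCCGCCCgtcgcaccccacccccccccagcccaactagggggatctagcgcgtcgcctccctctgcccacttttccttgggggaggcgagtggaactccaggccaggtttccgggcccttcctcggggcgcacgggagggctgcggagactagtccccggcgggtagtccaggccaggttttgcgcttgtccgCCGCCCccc
Cadm3: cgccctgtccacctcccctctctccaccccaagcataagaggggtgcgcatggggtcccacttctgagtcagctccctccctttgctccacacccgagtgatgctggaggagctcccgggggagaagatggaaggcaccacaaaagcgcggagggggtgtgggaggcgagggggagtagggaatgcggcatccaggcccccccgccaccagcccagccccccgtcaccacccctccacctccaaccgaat
Chl1: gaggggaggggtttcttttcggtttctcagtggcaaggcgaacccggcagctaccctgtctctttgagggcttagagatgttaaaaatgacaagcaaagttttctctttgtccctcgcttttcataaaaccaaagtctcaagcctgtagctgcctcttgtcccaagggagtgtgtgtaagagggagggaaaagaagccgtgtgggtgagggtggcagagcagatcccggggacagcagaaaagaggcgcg
Nrcam: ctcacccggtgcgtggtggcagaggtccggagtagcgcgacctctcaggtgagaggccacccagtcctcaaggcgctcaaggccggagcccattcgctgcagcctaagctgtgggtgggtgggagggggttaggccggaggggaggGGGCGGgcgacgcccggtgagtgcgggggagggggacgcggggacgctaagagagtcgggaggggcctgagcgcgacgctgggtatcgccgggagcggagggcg

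The capitals mark 2 GC boxes (GGGCGG on either strand) before Adgrl1 and 1 before Nrcam, and no searched motif lies in the other windows. A RefSeq promoter was found for 49 of the 63 genes, 68 promoters in all. The motif shares and the promoter GC content given further below come from the searched sequences, whose length may differ from the 250 bases printed. The GC box was present in 35.3% of these 68 promoters and in 32.7% of all 32851. The CRE (TGACGTCA, either strand) was in 4.41% against 1.55% of all, which is 3 promoters of the group. The E-box (CACGTG, either strand) was in 4.41% against 6.02%, and the TATA motif (TATAAA, either strand) in 7.35% against 12.4%. No searched motif overlaps another in letters. These matches describe the sequences and say nothing of what is bound there.

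The values are variance-stabilized, normalized for library size and on a log2 scale, so a difference of 1 stands for about a doubling of a well expressed gene. The library medians over all genes still differed, from 9.68 to 9.72 in sham and from 9.73 to 9.76 in HF-HI. Their group means differed by 0.052, and calls with the libraries centred on their medians are given below. Read totals were not analysed here. Depth relative to 1 library, read from the spacing of the values, ran from 0.580 to 1.26 in sham and from 0.548 to 1.63 in HF-HI (medians 0.865 and 1.17). A permutation test of the difference in mean log2 depth, two-sided, gave p = 0.106. The slope of a library's values on the GC content of the exons separated the groups more firmly. Per 10% GC, the sham slopes averaged -0.106 ± 0.0775 log2 units (SD, n = 10) and the HF-HI slopes 0.0960 ± 0.0602 (SD, n = 11), a difference of 0.202 (permutation test, two-sided, p = 4e-05). Each called difference of the 63 genes is therefore given below as deposited and also with each library's GC trend removed. Differences that were not called, and those of most partner genes, are given as deposited except where stated. The GC trend is a property of the libraries, its source was not tested, and a response of the tissue that tracked GC content would be removed along with it. All 10 neuron markers were tested, with 6 higher and 1 lower. Their summed level ran from 16.54 to 16.67 in sham and from 16.66 to 16.79 in HF-HI. A summed level here is the log2 of the markers' sum off the log scale, so the most abundant markers carry most of it. Of 8 astrocyte markers 4 were higher and 1 lower, with summed levels of 16.37 to 16.47 and 16.46 to 16.55. For oligodendrocytes, 7 of 8 markers were tested and 1 was higher, and the summed level ran from 15.25 to 15.98 in sham and from 15.29 to 15.97 in HF-HI. Fewer markers were tested for oligodendrocyte precursors (3 of 5), microglia (2 of 7) and endothelial cells (2 of 5), each with 1 higher and 1 lower. These marker values are as deposited. With the GC trend removed, 5 neuron markers were higher and 0 lower, and 3 astrocyte markers were higher and 2 lower. Oligodendrocytes then had 1 higher and 2 lower, precursors and microglia 0 higher and 1 lower each, and endothelial cells 1 higher and 1 lower. The lowest mean of a tested marker over all libraries was 8.51, for an oligodendrocyte marker, where the lowest single value of any gene was 4.59. The part of cell composition in the results was not tested, and in tissue RNA a change in cell number and a change in RNA per cell cannot be told apart.

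Adhesion genes changed in both directions after HF-HI. At an adjusted p under 0.05, 24 of the 63 genes were higher, 16 were lower and 23 were not called. Over all 5544 genes 66.3% were called, 32.6% higher and 33.6% lower, so the group was called about as often as the table as a whole. Among the 58 adhesion genes, 22 were higher and 15 lower. The median difference was 0.015 over the 63 genes and -0.0086 over all genes. Of the 24 higher genes 18 reached a difference of 0.25, while among the 16 lower genes only Lrrc40, not an adhesion molecule, did. Over all genes too, more were called higher (17.8%) than lower (8.04%) at that size. With the libraries centred on their medians the calls were 19 higher and 22 lower, where 26.1% of all genes were higher and 42.9% lower. With quantile normalization they were 19 higher and 21 lower, against 27.9% and 40.4% of all genes. With the GC trend removed, 22 were higher and 10 lower, where 60.2% of all genes were called, 29.2% higher and 31% lower. Of the 24 higher genes 19 stayed higher, 4 were no longer called and Lrrc45 turned lower. Of the 16 lower genes 6 stayed lower and 10 were no longer called. Sham and HF-HI libraries formed separate ranges for 7 of the 63 genes, against 13.5% of all genes. These were Igsf9b, Lrrc47, Nlgn3, Cadm3 and Ptprs, all above sham, and Chl1 and Lrrc40, below it. With the GC trend removed, 3 of them, Igsf9b, Nlgn3 and Cadm3, still formed separate ranges, against 12.7% of all genes.

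**Figure D1:**
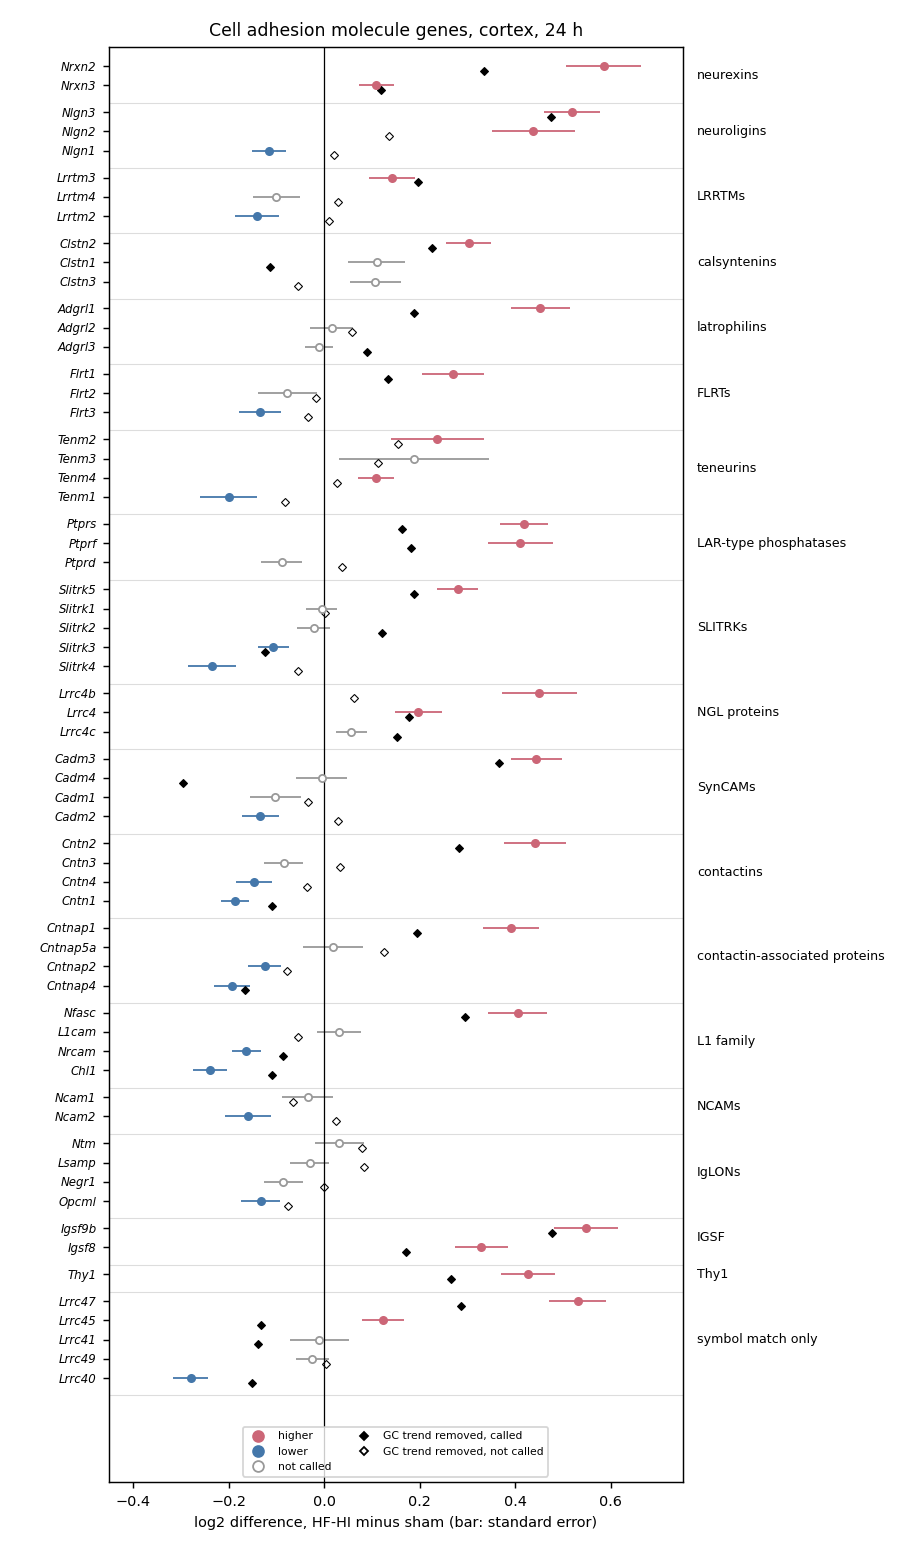
Log2 difference between HF-HI and sham for 62 of the 63 genes (x axis, bars give the standard error), by family. Red points are higher, blue points lower and open circles not called. Diamonds give the difference with the GC trend removed, filled where called. Nrxn2 lies farthest to the right among points as deposited and Lrrc40 farthest to the left, and most diamonds lie closer to 0 than their points. Among the higher genes Lrrc4b, Nlgn2, Tenm2 and Tenm4 lose their call there, and the difference of Lrrc45 turns negative. Of the lower genes 10 lose their call, and the differences of Ncam2, Lrrtm2, Cadm2 and Nlgn1 turn positive.

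Neurexins are presynaptic hubs that bind most of the partners below, and Nrxn2 and Nrxn3 were both called higher, by unequal amounts. Nrxn2 (ENSMUSG00000033768, chr19:6418731-6544169) had the highest difference of the group. Its values ran from 10.16 to 10.92 in sham (median 10.50) and from 10.87 to 11.43 in HF-HI (median 11.03). All HF-HI libraries but 1 lay above the highest sham library, replicate 5, and the lowest HF-HI library lay just below it. The mean rose from 10.50 ± 0.22 (SD, n = 10) to 11.09 ± 0.17 (SD, n = 11), a difference of 0.59 (SE 0.078, adjusted p = 1.08e-06), and 0.33 (SE 0.065, adjusted p = 0.00012) with the GC trend removed. Nrxn3 (ENSMUSG00000066392, chr12:88722876-90334935) ran from 12.22 to 12.49 in sham (median 12.41) and from 12.33 to 12.60 in HF-HI (median 12.48). The groups overlapped, and 5 HF-HI libraries lay above every sham library. Its mean went from 12.39 ± 0.079 (SD, n = 10) to 12.50 ± 0.087 (SD, n = 11), a difference of 0.11 (SE 0.037, adjusted p = 0.0126), and 0.12 (SE 0.036, adjusted p = 0.00696) with the GC trend removed. That call was lost with median centring and with quantile normalization.

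The neuroligins are the best known postsynaptic partners of neurexins: Nlgn1 sits mainly at excitatory synapses, Nlgn2 at inhibitory synapses and Nlgn3 at either type. Nlgn3 (ENSMUSG00000031302, chrX:101299168-101325963) separated the groups fully. Values ran from 10.06 to 10.49 in sham (median 10.25) and from 10.59 to 10.97 in HF-HI (median 10.77), and the groups did not overlap with the GC trend removed either. The mean rose from 10.25 ± 0.16 (SD, n = 10) to 10.77 ± 0.12 (SD, n = 11), a difference of 0.52 (SE 0.058, adjusted p = 1.03e-07), and 0.47 (SE 0.053, adjusted p = 1.09e-07) with the GC trend removed. Nlgn2 (ENSMUSG00000051790, chr11:69823122-69837784) ran from 9.72 to 10.42 in sham (median 10.10) and from 10.13 to 10.81 in HF-HI (median 10.46). Of its 11 HF-HI libraries 8 lay above every sham library, and replicate 9 was the lowest. Mean Nlgn2 rose from 10.04 ± 0.24 (SD, n = 10) to 10.48 ± 0.19 (SD, n = 11), a difference of 0.44 (SE 0.087, adjusted p = 0.000142). Its GC-removed difference was 0.14 (SE 0.064, adjusted p = 0.0706), which did not pass. Nlgn1 (ENSMUSG00000063887, chr3:25426215-26332460) went the other way, from 10.33 to 10.59 in sham (median 10.44) and from 10.23 to 10.48 in HF-HI (median 10.36), with wide overlap. Its mean fell from 10.46 ± 0.081 (SD, n = 10) to 10.35 ± 0.072 (SD, n = 11), a difference of -0.11 (SE 0.035, adjusted p = 0.00636), but was 0.021 (SE 0.033, adjusted p = 0.584) with the GC trend removed.

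**Figure D2:**
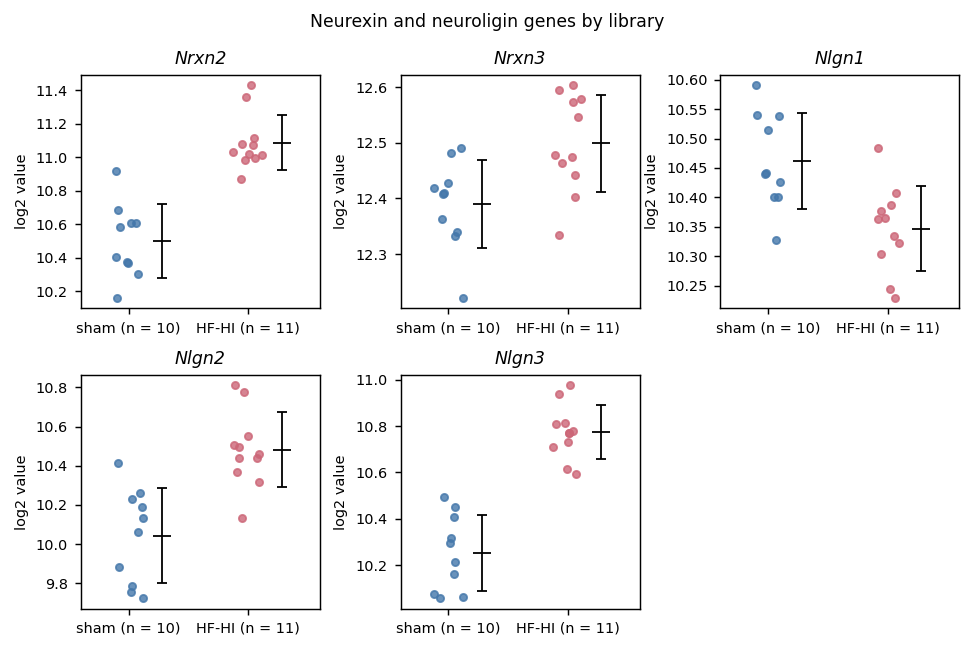
Log2 value of Nrxn2, Nrxn3, Nlgn1, Nlgn2 and Nlgn3 (y axis) in each sham (blue) and HF-HI (red) library, with the group mean and SD beside the points. The groups do not overlap for Nlgn3, overlap only at the margin for Nrxn2, and overlap widely for Nlgn1. The y axes differ between panels and do not start at 0.

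Per kilobase of exon, on the log2 scale, the levels in sham were 8.73 for Nrxn3 and 6.71 for Nrxn2. In HF-HI they were 8.84 and 7.30, so Nrxn3 stayed above Nrxn2 and the gap narrowed. Neuroligin levels per kilobase in sham were 7.51 for Nlgn2, 7.04 for Nlgn3 and 6.72 for Nlgn1, and in HF-HI 7.95, 7.56 and 6.60. The highest level per kilobase of the group was that of Clstn1 (11.95 in sham) and the lowest that of Igsf9b (4.79). Exon length here is the union over all annotated transcripts, which is longer than any 1 transcript and lowers these levels unequally.

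LRRTMs, which bind neurexins from the postsynaptic side of excitatory synapses, split as well. Lrrtm3 rose by 0.14 (SE 0.049, adjusted p = 0.0133), and 0.20 (adjusted p = 0.00379) with the GC trend removed, although median centring, quantile normalization and a covariate for depth each took the call away. Lrrtm2 fell, at -0.14 (adjusted p = 0.00947), but its GC-removed difference was 0.0092 (adjusted p = 0.833). Lrrtm4 was not called, at -0.10 (adjusted p = 0.077). The calsyntenins are postsynaptic cadherin-type proteins, of which Clstn1 is also a cargo adaptor for kinesin. Clstn2 rose by 0.30 (SE 0.047, adjusted p = 8.58e-06), and by 0.23 (adjusted p = 0.000123) with the GC trend removed. Clstn1 and Clstn3 were not called, at 0.11 (adjusted p = 0.111) and 0.11 (adjusted p = 0.0781). Clstn1 was called lower, at -0.11 (adjusted p = 0.0297), once the GC trend was removed.

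Latrophilins, teneurins and FLRTs bind one another across the cleft. Among the 3 latrophilins, receptors of the adhesion G protein-coupled class, Adgrl1 (ENSMUSG00000013033, chr8:83900105-83941954) changed. Its values ran from 12.58 to 13.15 in sham (median 12.83) and from 13.06 to 13.45 in HF-HI (median 13.31). The groups overlapped through HF-HI replicate 9, and the other 10 HF-HI libraries lay above every sham library. The mean rose from 12.84 ± 0.19 (SD, n = 10) to 13.30 ± 0.11 (SD, n = 11), a difference of 0.45 (SE 0.063, adjusted p = 1.66e-06), and 0.19 (SE 0.04, adjusted p = 0.000353) with the GC trend removed. Adgrl2 (0.015) and Adgrl3 (-0.011) were not called. Adgrl3 was called higher, at 0.089 (adjusted p = 0.0222), once the GC trend was removed.

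Of the 4 teneurins, large transmembrane ligands of latrophilins, Tenm1 (ENSMUSG00000016150, chrX:42527866-43429126) fell. Values ran from 10.53 to 10.98 in sham (median 10.83) and from 10.34 to 10.83 in HF-HI (median 10.60), and 3 HF-HI libraries lay below every sham library. Its mean went from 10.80 ± 0.15 (SD, n = 10) to 10.60 ± 0.14 (SD, n = 11), a difference of -0.20 (SE 0.06, adjusted p = 0.00553), and -0.082 (SE 0.054, adjusted p = 0.198) with the GC trend removed, where it no longer passed. Tenm2 was higher by 0.24 (SE 0.097, adjusted p = 0.0357). This call was lost in 9 of 21 fits that left out 1 library, in which the difference ran from 0.18 to 0.28. Tenm4 was higher by 0.11 (adjusted p = 0.0162). With the GC trend removed neither was called, Tenm2 at 0.16 (adjusted p = 0.176) and Tenm4 at 0.026 (adjusted p = 0.515), and both lost their call with median centring and with quantile normalization. Tenm3 varied most of the group between libraries, from 9.18 to 10.10 in sham (median 9.46) and from 9.24 to 10.96 in HF-HI (median 9.51). Its highest value came from HF-HI replicate 11, and its difference was not called, at 0.19 (adjusted p = 0.297). Among the FLRTs, which also act in axon guidance, Flrt1 rose by 0.27 (SE 0.065, adjusted p = 0.00096), and 0.13 (adjusted p = 0.0269) with the GC trend removed. Flrt3 fell, at -0.13 (adjusted p = 0.0105), and at -0.035 (adjusted p = 0.544) with the GC trend removed it did not pass. Flrt2 was not called, at -0.077.

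The LAR-type phosphatases are presynaptic receptors that organise the release site. Ptprs separated the groups fully as deposited, from 11.95 to 12.38 in sham (median 12.05) and from 12.41 to 12.62 in HF-HI (median 12.55). It rose by 0.42 (SE 0.051, adjusted p = 2.98e-07), and by 0.16 (adjusted p = 9.32e-05) with the GC trend removed, where the groups overlapped. Ptprf rose by 0.41 (SE 0.068, adjusted p = 1.58e-05), and by 0.18 (adjusted p = 0.00703) with the GC trend removed. Ptprd, which has the highest level per kilobase of the LAR-type genes (8.86 in sham), was not called, at -0.089 (adjusted p = 0.065). It was called lower with median centring, at -0.14 (adjusted p = 0.00582), and with quantile normalization.

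Their postsynaptic partners include the SLITRKs, leucine-rich repeat proteins. Slitrk5 rose by 0.28 (SE 0.043, adjusted p = 7.24e-06), and by 0.19 (adjusted p = 0.000156) with the GC trend removed, with 10 of 11 HF-HI libraries above every sham library. Slitrk4 (ENSMUSG00000046699, chrX:64264885-64276996) fell. Values ran from 10.71 to 11.10 in sham (median 10.94) and from 10.52 to 10.93 in HF-HI (median 10.67), and 8 HF-HI libraries lay below every sham library. The mean went from 10.90 ± 0.12 (SD, n = 10) to 10.67 ± 0.11 (SD, n = 11), a difference of -0.23 (SE 0.05, adjusted p = 0.000289), but -0.055 (SE 0.035, adjusted p = 0.181) with the GC trend removed, which did not pass. Slitrk3 fell on either scale, at -0.11 (adjusted p = 0.00642) as deposited and -0.12 (adjusted p = 0.00162) with the GC trend removed. Slitrk1 (-0.005) and Slitrk2 (-0.021) were not called, and with the GC trend removed Slitrk2 was called higher, at 0.12 (adjusted p = 0.00607).

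NGL proteins are postsynaptic partners of LAR-type phosphatases (Lrrc4b) and of netrin-G proteins (Lrrc4 and Lrrc4c). Lrrc4b (ENSMUSG00000047085, chr7:44429018-44463351) ran from 9.31 to 9.95 in sham (median 9.75) and from 9.78 to 10.36 in HF-HI (median 10.15). All HF-HI libraries but replicate 2 lay above every sham library. Its mean rose from 9.69 ± 0.24 (SD, n = 10) to 10.14 ± 0.14 (SD, n = 11), a difference of 0.45 (SE 0.079, adjusted p = 3.15e-05). It has the highest exonic GC content of the group (63.9%), and with the GC trend removed the difference was 0.062 (SE 0.051, adjusted p = 0.301), which did not pass. Lrrc4 rose by 0.20 (SE 0.049, adjusted p = 0.00126), and by 0.18 (adjusted p = 0.00255) with the GC trend removed. Lrrc4c was not called as deposited, at 0.057 (adjusted p = 0.131), and was called higher with the GC trend removed, at 0.15 (adjusted p = 0.000217).

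SynCAMs are immunoglobulin-type molecules that bind one another across the synapse and along axons. Cadm3 (ENSMUSG00000005338, chr1:173333258-173367695) separated the groups fully, on values as deposited and with the GC trend removed. Values ran from 11.27 to 11.67 in sham (median 11.49) and from 11.71 to 12.07 in HF-HI (median 11.93). Mean levels rose from 11.49 ± 0.15 (SD, n = 10) to 11.93 ± 0.10 (SD, n = 11), a difference of 0.44 (SE 0.054, adjusted p = 2.77e-07), and 0.36 (SE 0.044, adjusted p = 3.65e-07) with the GC trend removed. Cadm2 fell, at -0.13 (adjusted p = 0.00426), but its GC-removed difference was 0.028 (adjusted p = 0.363). Cadm1 was not called, at -0.10 (adjusted p = 0.0958). Cadm4, whose protein is best known at contacts between myelinating glia and axons, was close to 0 as deposited, at -0.0055 (adjusted p = 0.933). It has an exonic GC content of 60.0% and was called lower with the GC trend removed, at -0.29 (SE 0.051, adjusted p = 3.16e-05).

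Among the contactins, membrane-anchored proteins of axons, Cntn2 and Cntn1 moved apart. Cntn2 (ENSMUSG00000053024, chr1:132509427-132543256), found beside the node, ran from 10.04 to 10.45 in sham (median 10.23) and from 10.24 to 10.82 in HF-HI (median 10.67). HF-HI replicate 9 lay among the sham libraries and the other 10 lay above them all. Mean Cntn2 rose from 10.24 ± 0.15 (SD, n = 10) to 10.68 ± 0.16 (SD, n = 11), a difference of 0.44 (SE 0.065, adjusted p = 3.77e-06), and 0.28 (SE 0.052, adjusted p = 7.94e-05) with the GC trend removed. Cntn1 (ENSMUSG00000055022, chr15:92051165-92341967), a paranodal partner of Cntnap1, ran from 13.20 to 13.42 in sham (median 13.34) and from 13.08 to 13.21 in HF-HI (median 13.13). Of its HF-HI libraries 9 lay below every sham library. The mean fell from 13.33 ± 0.07 (SD, n = 10) to 13.14 ± 0.047 (SD, n = 11), a difference of -0.19 (SE 0.029, adjusted p = 6.9e-06), and -0.11 (SE 0.026, adjusted p = 0.00105) with the GC trend removed. Cntn4 fell, at -0.15 (adjusted p = 0.00149), and at -0.035 (adjusted p = 0.435) with the GC trend removed it did not pass. Cntn3 was not called, at -0.085 (adjusted p = 0.0747).

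The contactin-associated proteins showed the same kind of split. Cntnap1, the paranodal partner of Cntn1, rose by 0.39 (SE 0.058, adjusted p = 4.34e-06), and by 0.20 (adjusted p = 0.00142) with the GC trend removed. Its values ran from 10.29 to 10.74 in sham (median 10.44) and from 10.62 to 11.05 in HF-HI (median 10.88), and HF-HI replicate 9 was the only HF-HI library inside the sham range. Cntnap4 (ENSMUSG00000031772, chr8:112570043-112882717), known from interneurons, ran from 8.78 to 9.03 in sham (median 8.90) and from 8.61 to 8.83 in HF-HI (median 8.68), with 8 HF-HI libraries below every sham library. Its mean fell from 8.90 ± 0.094 (SD, n = 10) to 8.71 ± 0.072 (SD, n = 11), a difference of -0.19 (SE 0.038, adjusted p = 0.000137), and -0.17 (SE 0.038, adjusted p = 0.000696) with the GC trend removed. Cntnap2, which clusters potassium channels beside the node, fell, at -0.12 (adjusted p = 0.00326). It did not pass once the GC trend was removed, at -0.078 (adjusted p = 0.0921). Cntnap5a was not called, at 0.019.

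In the L1 family, which links the axon membrane to ankyrin, Nfasc rose and Chl1 and Nrcam fell. Nfasc, whose isoforms lie at the axon initial segment, the node and the paranode, ran from 10.85 to 11.09 in sham (median 10.95) and from 10.91 to 11.60 in HF-HI (median 11.38). HF-HI replicate 9 lay within the sham range and the other 10 above it. The difference was 0.41 (SE 0.062, adjusted p = 6e-06), and 0.29 (adjusted p = 5.39e-05) with the GC trend removed. Chl1 (ENSMUSG00000030077, chr6:103510586-103750211), a close homolog of L1cam that acts in neurite growth, ran from 11.31 to 11.50 in sham (median 11.40) and from 11.02 to 11.28 in HF-HI (median 11.15). The groups did not overlap as deposited and did so with the GC trend removed. The mean fell from 11.40 ± 0.065 (SD, n = 10) to 11.16 ± 0.09 (SD, n = 11), a difference of -0.24 (SE 0.036, adjusted p = 4.68e-06), and -0.11 (SE 0.035, adjusted p = 0.00942) with the GC trend removed. Nrcam (ENSMUSG00000020598, chr12:44328885-44601964), a further node protein, ran from 12.86 to 13.01 in sham (median 12.92) and from 12.62 to 12.87 in HF-HI (median 12.78), and 10 of its HF-HI libraries lay below every sham library. Its mean fell from 12.92 ± 0.05 (SD, n = 10) to 12.76 ± 0.075 (SD, n = 11), a difference of -0.16 (SE 0.031, adjusted p = 7.56e-05), and -0.086 (SE 0.033, adjusted p = 0.0269) with the GC trend removed. L1cam was not called, at 0.031 (adjusted p = 0.563).

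The NCAMs and IgLONs held no gene that was called higher. Ncam2 (ENSMUSG00000022762, chr16:81200697-81626828), an axonal homolog of Ncam1, ran from 10.69 to 11.02 in sham (median 10.93) and from 10.61 to 10.95 in HF-HI (median 10.69), with 5 HF-HI libraries below every sham library. Its mean fell from 10.89 ± 0.13 (SD, n = 10) to 10.73 ± 0.10 (SD, n = 11), a difference of -0.16 (SE 0.048, adjusted p = 0.00586). It has the lowest exonic GC content of the group (35.1%), and its GC-removed difference was 0.024 (SE 0.035, adjusted p = 0.566). Ncam1 was not called, at -0.035. Of the IgLONs, anchored proteins of the neuronal surface, Opcml fell, at -0.13 (adjusted p = 0.0063), and at -0.076 (adjusted p = 0.101) with the GC trend removed it did not pass. Negr1 (-0.086), Lsamp (-0.03) and Ntm (0.032) were not called, and with median centring Negr1 was called lower and Ntm had a negative difference.

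Igsf9b (ENSMUSG00000034275, chr9:27299204-27357546), an adhesion molecule of inhibitory synapses, had the second highest difference. Values ran from 8.56 to 9.08 in sham (median 8.84) and from 9.14 to 9.57 in HF-HI (median 9.36), without overlap, also with the GC trend removed. The mean rose from 8.85 ± 0.18 (SD, n = 10) to 9.39 ± 0.15 (SD, n = 11), a difference of 0.55 (SE 0.067, adjusted p = 3.55e-07), and 0.48 (SE 0.061, adjusted p = 7.26e-07) with the GC trend removed. Igsf8, a tetraspanin-binding protein, rose by 0.33 (SE 0.056, adjusted p = 2.22e-05), and by 0.17 (adjusted p = 0.00661) with the GC trend removed. Thy1, an abundant surface protein of neurons, rose by 0.43 (SE 0.056, adjusted p = 9.11e-07), and by 0.27 (adjusted p = 5.01e-05) with the GC trend removed.

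The 5 genes that share only the letters of the stem are given for completeness. Lrrc47 (ENSMUSG00000029028, chr4:154011731-154021513) ran from 8.01 to 8.63 in sham (median 8.23) and from 8.64 to 8.98 in HF-HI (median 8.79), without overlap. Its mean rose from 8.25 ± 0.18 (SD, n = 10) to 8.78 ± 0.10 (SD, n = 11), a difference of 0.53 (SE 0.06, adjusted p = 1.12e-07), and 0.29 (SE 0.063, adjusted p = 0.000486) with the GC trend removed. Lrrc40 (ENSMUSG00000063052, chr3:158036662-158068487) ran from 8.59 to 8.87 in sham (median 8.66) and from 8.27 to 8.51 in HF-HI (median 8.38), also without overlap. Its mean fell from 8.68 ± 0.084 (SD, n = 10) to 8.40 ± 0.073 (SD, n = 11), a difference of -0.28 (SE 0.037, adjusted p = 1e-06), and -0.15 (SE 0.037, adjusted p = 0.00118) with the GC trend removed. Lrrc45 was higher by 0.12 (adjusted p = 0.0179) as deposited and was called lower, at -0.13 (adjusted p = 0.0204), with the GC trend removed. Centring and quantile normalization also ended its call. Lrrc41 (-0.0099) and Lrrc49 (-0.025) were not called, and Lrrc41 was called lower with the GC trend removed, at -0.14 (adjusted p = 0.0211).

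**Figure D3:**
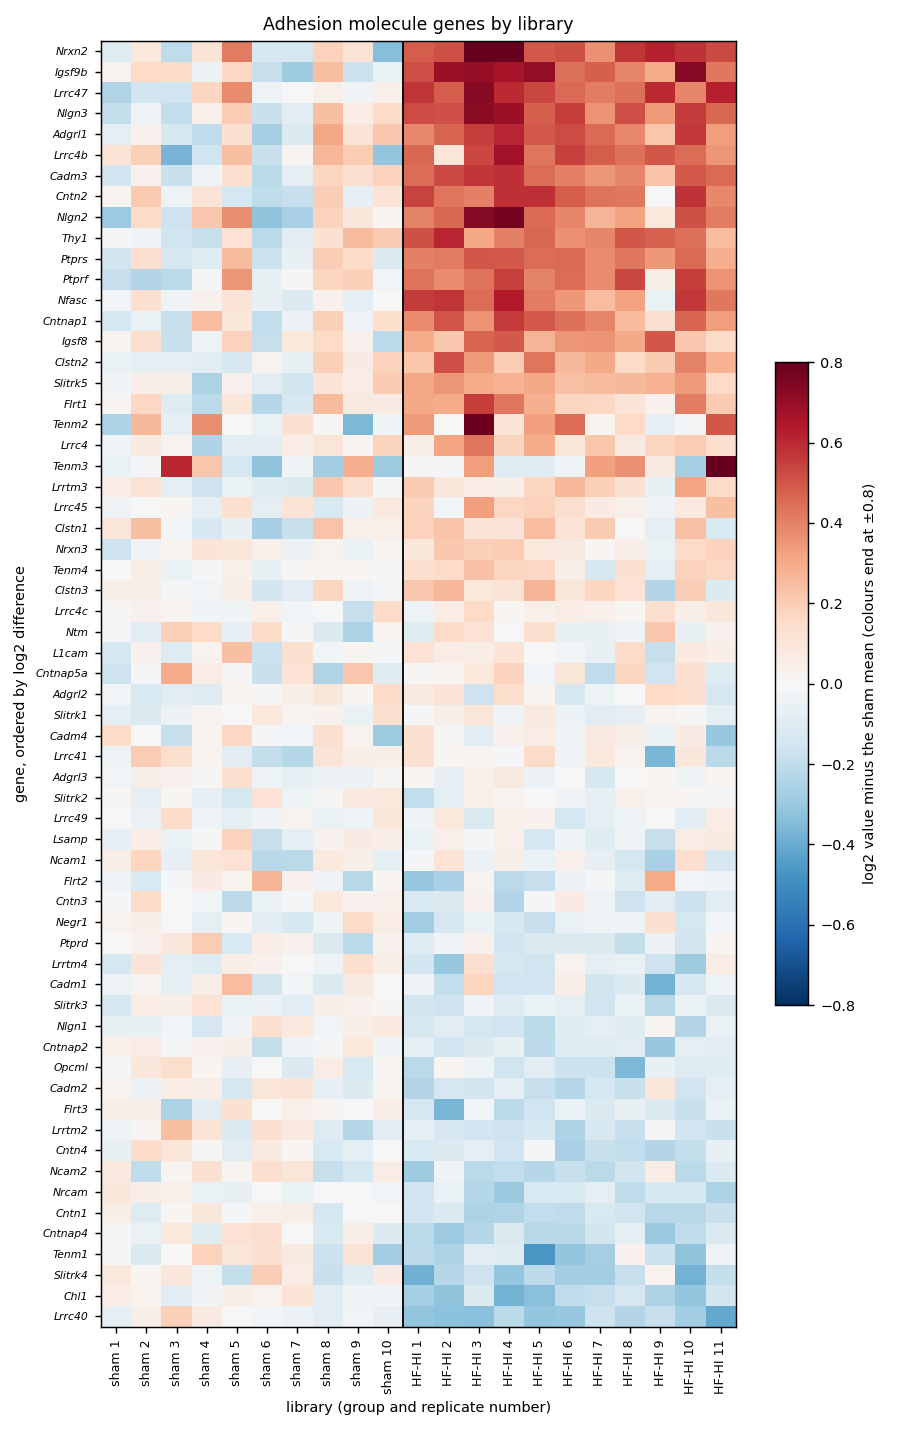
Value of 62 of the 63 genes in each library minus its sham mean (log2, red above and blue below, colours end at 0.8), with genes ordered by their difference between the groups and the black line between sham and HF-HI. The upper genes are red across most HF-HI libraries, HF-HI replicate 9 is the palest of them in many rows, and the lower genes are blue with a smaller span.

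Single libraries set the edge of many groups. HF-HI replicate 9 was the lowest HF-HI library for 14 of the 24 higher genes, and sham replicates 5 and 8 were the highest sham library for 7 each. HF-HI replicate 9 also had the lowest GC slope of its group, at -0.039, and a relative depth of 0.573. The GC slopes of sham replicates 5 and 8 were -0.030 and 0.0058, near the top of their group. Without HF-HI replicate 9, 25 genes were higher and 17 lower. Over all fits that left out 1 library, 23 to 26 were higher and 16 to 20 lower.

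The differences followed the GC content of the exons closely. Over the 63 genes, Spearman's rho between difference and exonic GC was 0.796 (Pearson's r = 0.792), and over all 5539 genes with a GC content it was 0.480. These are descriptions across genes, which share libraries and are not independent. Of the 28 genes under 45% GC, Lrrtm3 alone was called higher and 14 (50%) were lower, near the share over all genes of that range, of which 11.8% were higher and 53.7% lower. Of the 26 genes at 50% or more, 20 were higher and none was called lower, where over all genes of that range 54.8% were higher and 15.1% lower. Once the GC trend was removed, 15 of these 26 genes were higher and 4 lower, against 33.3% and 33.6% of all genes at 50% or more. Of the 28 genes under 45%, 4 were then higher and 4 lower, against 484 and 545 of all 1944 genes of that range. The rho was 0.322 over the 63 genes and 0.00047 over all genes after removal. The lowest GC-removed difference among the 63 was that of Cadm4, and the highest were those of Igsf9b and Nlgn3.

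**Figure D4:**
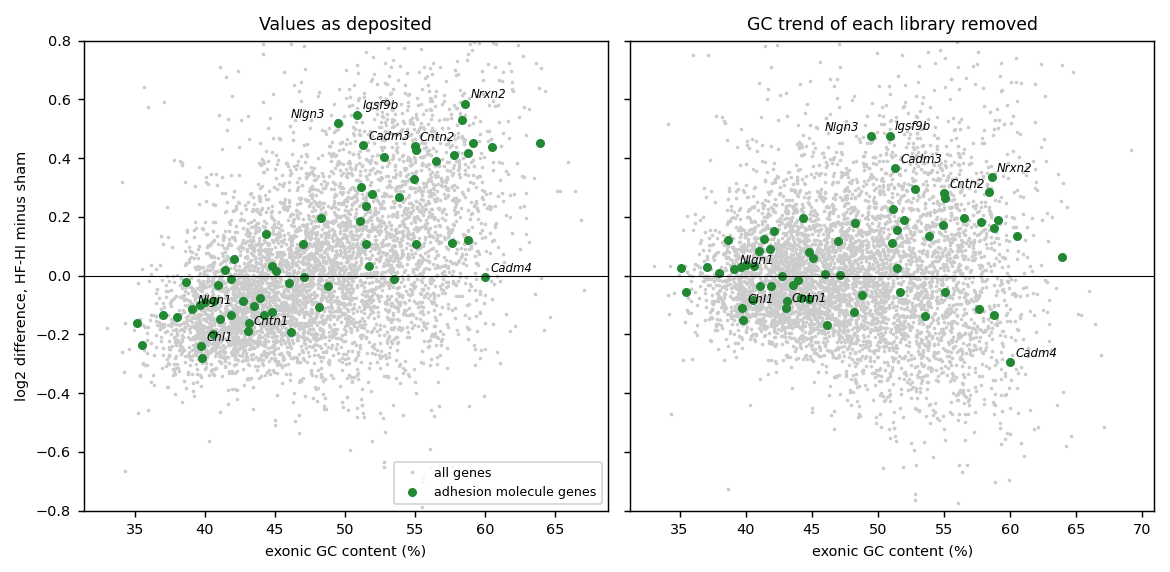
Log2 difference between HF-HI and sham (y axis) against exonic GC content (x axis) for 62 of the 63 genes (green) and all genes (grey), as deposited on the left and with each library's GC trend removed on the right. Genes with a difference beyond 0.8 in either direction are not drawn, none of them among the 62. On the left the green points climb with GC content, and on the right Cadm4 lies lowest while Igsf9b, Nlgn3, Cadm3 and Nrxn2 stay high.

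Many adhesion genes span long stretches of the genome. Of the 63 genes 20 span over 500 kb, of which 4 were higher and 6 lower, with a median exonic GC of 42.4%. Of all 148 genes of that span 25% were higher and 36.5% lower. The other 43 had 20 higher and 10 lower and a median GC of 50.9%, where 32.9% of all 5393 genes up to 500 kb were higher and 33.5% lower. With the GC trend removed the long genes had 4 higher and 0 lower (limma, with 16 not called), against 18 higher and 10 lower among the others. Over all genes these shares were 28.4% higher and 20.9% lower for long genes and 29.3% and 31.3% for the rest, and the contrast within the group was not tested. Spearman's rho between difference and log2 span over the 63 genes was -0.322 as deposited and -0.0751 with the GC trend removed, as a description. Over all genes it was 0.050 and 0.210. Promoter GC content, over the 49 genes with a promoter, had a rho of 0.286 with the difference as deposited and of 0.102 with the GC trend removed.

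Paralogs were compared with each other inside each library, which cancels any factor that acts on both genes alike. All 72 pairs within the 17 families of 2 or more genes were tested (permutation test, 100000 resamples, two-sided, adjusted over the 72 pairs). The difference between the genes changed in 46 of the 72 pairs (63.9%) as deposited and in 36 (50%) with the GC trend removed, and 29 passed in both forms with the same direction. In 7 pairs, as deposited, the groups did not overlap. Pairs of genes from different families were not compared, so whether these counts are particular to paralogs was not tested. For Nlgn3 minus Nlgn1, the value ran from -0.52 to 0.055 in sham and from 0.11 to 0.65 in HF-HI. Nlgn3 was thus above Nlgn1 in every HF-HI library, on values not scaled for length. This pair moved by 0.63 (SE 0.079, adjusted p = 4.8e-05), and by 0.45 (SE 0.06, adjusted p = 6.55e-05) with the GC trend removed, again without overlap. Nlgn3 minus Nlgn2 moved by 0.082 (SE 0.053, adjusted p = 0.178), which did not pass, and by 0.34 (SE 0.044, adjusted p = 6.55e-05) with the GC trend removed.

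The pair with the widest change of each family, among the genes described here, was picked by its size and is a description. Nfasc minus Chl1 moved by 0.64 (SE 0.081, adjusted p = 4.8e-05), Cntn2 minus Cntn1 by 0.63 (SE 0.081, adjusted p = 4.8e-05) and Nrxn2 minus Nrxn3 by 0.48 (SE 0.079, adjusted p = 4.8e-05). With the GC trend removed they moved by 0.40 (SE 0.066, adjusted p = 6.55e-05), 0.39 (SE 0.059, adjusted p = 6.55e-05) and 0.22 (SE 0.065, adjusted p = 0.00432). All 3 pairs passed in both forms. Cntnap1 minus Cntnap4 moved by 0.58 (SE 0.085, adjusted p = 4.8e-05), Cadm3 minus Cadm2 by 0.58 (SE 0.086, adjusted p = 9e-05) and Slitrk5 minus Slitrk4 by 0.51 (SE 0.075, adjusted p = 4.8e-05), and these passed with the GC trend removed as well. Adgrl1 minus Adgrl3, Ptprs minus Ptprd, Tenm2 minus Tenm1 and Lrrc4b minus Lrrc4c passed as deposited and not with the GC trend removed. The last of these changed sign, from 0.39 to -0.09. Cadm3 minus Cadm4 moved by 0.45 (SE 0.08, adjusted p = 0.000229), and by 0.66 (SE 0.09, adjusted p = 6.55e-05) with the GC trend removed. The NCAM pair did not pass in either form.

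**Figure D5:**
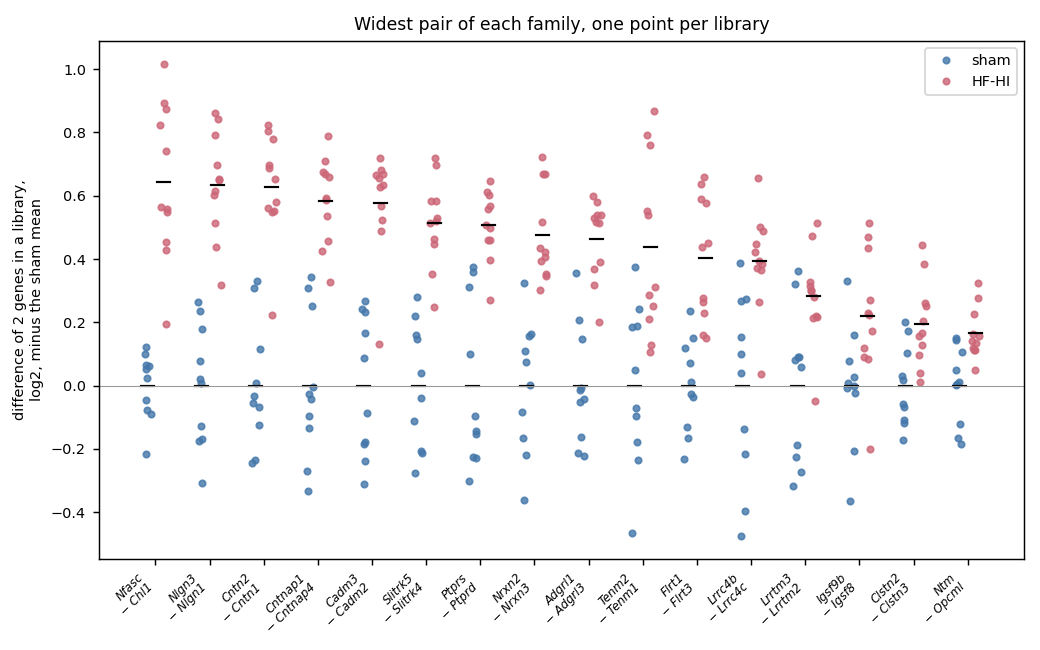
Difference between 2 genes of a family within each library (log2, sham mean set to 0, y axis) for the pair with the widest called change of each family among these genes. Blue points are sham libraries, red points HF-HI libraries, and black lines are group means. The HF-HI means lie between 0.16 and 0.64, and for most pairs some libraries of the groups overlap. The difference of Lrrc4b minus Lrrc4c turned negative with the GC trend removed, which is not drawn.

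Genes that work with these molecules were taken from 2 lists. Of 84 listed partners 60 were tested, and 26 were higher, 16 lower and 18 not called. That is 70% called, near the 66.3% of all genes, of which 32.6% were higher and 33.6% lower. Among the intracellular scaffolds and cytoskeletal linkers, 33 of 38 were tested, with 17 higher (51.5%) and 8 lower (24.2%). The highest differences of this list were those of scaffolds of the postsynaptic density. Dlgap4 was higher by 1.16 and Shank3 by 1.07, and by 0.92 and 0.72 with the GC trend removed. Dlgap3 (0.64), Shank2 (0.60), Mpp2 (0.59), Shank1 (0.49), Dlgap2 (0.48) and Dlg4 (0.48), which binds the tails of neuroligins, were also higher, of which Shank1 was not called with the GC trend removed. The linkers of the axon membrane Sptbn4 (0.57) and Ank3 (0.34), partners of the L1 family, were higher on either scale, as were Apba1 (0.49), a neurexin-linked adaptor, and Epb41l2 (0.26).

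Among the secreted or bound ligands and regulators, 27 of 46 were tested, with 9 higher (33.3%) and 8 lower (29.6%), near the shares of all genes. Unc5a, a netrin receptor, was higher by 0.82, and by 0.47 with the GC trend removed. Sparc (0.60), Nptxr (0.54), Sdc3 (0.51) and Dag1 (0.33), which encodes the neurexin-binding dystroglycan, were also higher on either scale. Lgi3 was higher by 0.30 and was not called with the GC trend removed. No called partner was lower by 0.25 or more. With the GC trend removed 22 of the 60 partners were higher and 11 lower, where 29.2% of all genes were higher and 31% lower.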

How the data were processed

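Libraries were prepared from total cortical RNA with a stranded kit that depletes ribosomal RNA, multiplexed 6 to a pool, and read as 100 bp pairs. STAR placed the reads on mm10 and eXpress gave counts per transcript. The authors then deposited values from DESeq2, which are size-factor normalized, variance-stabilized and on a log2 scale, 1 per Ensembl gene and library. A version is stated by the study for DESeq2 alone, and those of STAR and eXpress and the annotation are not given in the sources used here. Near-identical or overlapping transcripts may share reads under that counting. On this scale the difference of a low gene understates its log2 ratio of counts.

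Gene symbols, positions, spans and exonic GC came from GENCODE M21 on GRCm38, the assembly of mm10 (5539 genes with GC). Libraries took their group from their titles, and all 21 columns were matched. The study counts its libraries as mice; the labels do not name the animals. The test per gene was limma 3.58.1 under R 4.3.3, using lmFit and then eBayes with its trend option, two-sided, with Benjamini-Hochberg adjustment over all 5544 genes and a threshold of 0.05. GC trends were removed per library with lowess (span 0.3) on deviations from the mean of all libraries. Relative depth came from the spacing of 2 to the power of the value between 400 and 480. Permutation tests used 100000 resamples. Python 3.11.15 ran the remaining steps, with pandas 2.3.3, numpy 2.4.6 and scipy 1.17.1, and matplotlib 3.10.9 drew the plots. The fit was tested on simulated data. No 2 libraries were near-identical (smallest distance within a group 7.73, median 15.1).

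The genes and lists were chosen with earlier results of these data known. By the rule, every gene of the group is named, in full the 8 highest and 8 lowest called differences and every neurexin and neuroligin, and of the partners those called with a difference of at least 0.25. As an exception, 1 gene of the group enters the counts and is not reported here. The alternatives were another threshold (0.1), a minimum difference of 0.25, no mean-variance trend, the Wilcoxon rank-sum test, median centring, quantile normalization, genes outside the lowest quartile, the replicate block, removal of GC or length trends, a depth covariate and each library left out. The counts without the 5 genes that fit by number alone, and the pair differences under GC removal and leave-one-out, were added after seeing the data.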

Additional observations from a re-analysis of the deposited data

Results flagged for a closer look

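Among the 10 sham libraries, Cntnap2 had a low library that stood apart. Sham replicate 6 was at 10.87 (10.8724), while the nearest sham library was at 11.02, a gap of 0.540 of the whole sham range. It was the only one of the 63 genes to meet this rule for a single distant library, which chance alone meets in about 1 of 20 groups. The group of 11 HF-HI libraries was not examined this way. Cntnap2 was called lower as deposited, at -0.12, and its difference ran from -0.15 to -0.11 over the fits that left out 1 library.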

How the results depend on the processing

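The main fit called 40 of the 63 genes. This count stayed within 1.5 times 40 with the Wilcoxon rank-sum test and with eBayes without a trend. The same held with a covariate for depth and with an adjusted p under 0.1. Fits that left out 1 library gave 39 to 43 called genes of the group, 23 to 26 higher and 16 to 20 lower, 3562 to 3805 called of all genes, 40 to 43 called partners, a median difference of 0.0022 to 0.029 and a difference in GC slope of 0.188 to 0.215. A minimum difference of 0.25 left 19 genes of the group with 1 lower, 1433 of all genes and 18 partners. Removal of the GC trend left 10 lower genes, and 7 together with the replicate block. Depth limits none of these by a known amount, since read totals were not analysed.

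The replicate number did not pair the libraries. Correlations of same-numbered deviations ran from -0.31 to 0.364 over 10 pairs, 4 of them above 0.1, and 0 sham libraries lay closest to the HF-HI library of their number. With the number as a replicate block, which drops HF-HI replicate 11, 40 genes of the group were called (24 higher, 16 lower), 3497 of all genes and 41 partners. Tenm2 lost its call there (log2 difference of Tenm2 0.21, limma adjusted p = 0.0816) and Clstn3 gained one (log2 difference of Clstn3 0.13, limma adjusted p = 0.0255). The sign turned for 3 uncalled genes, Lrrc41 0.011, Cadm4 0.024 and Slitrk1 0.0019. With the GC trend removed as well, 29 genes were called, and the sign turned for Ncam2 0.029, Lrrtm2 0.021, Cadm2 0.030, Nlgn1 0.022, Lrrtm4 0.021, Ptprd 0.032, Cntn3 0.039, Lsamp 0.078, Slitrk2 0.13, Adgrl3 0.091, Slitrk1 0.0087, L1cam -0.062, Clstn3 -0.040, Clstn1 -0.099, Lrrc45 -0.15 and Tenm3 -0.019.

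Signs turned with the GC trend removed for Ncam2 0.024, Lrrtm2 0.0092, Cadm2 0.028, Nlgn1 0.021, Lrrtm4 0.030, Ptprd 0.036, Cntn3 0.032, Lsamp 0.082, Lrrc49 0.0043, Slitrk2 0.12, Adgrl3 0.089, Slitrk1 0.0022, L1cam -0.055, Clstn3 -0.054, Clstn1 -0.11 and Lrrc45 -0.13, of which Ncam2, Lrrtm2, Cadm2, Nlgn1 and Lrrc45 had been called. Removal of GC and exonic length trends turned Lrrtm4 0.010, Cntn3 0.0080, Lsamp 0.014, Slitrk2 0.088, Adgrl3 0.019, Adgrl2 -0.0038, L1cam -0.084, Clstn3 -0.046, Tenm4 -0.049, Clstn1 -0.095 and Lrrc45 -0.069. Of these Tenm4 and Lrrc45 had been called. Genes not called turned under the depth covariate (Adgrl3 0.0027 and Slitrk1 0.0079), the exonic length trend (Cadm4 0.048, Adgrl2 -0.0047 and Cntnap5a -0.0047), median centring (Adgrl2 -0.036, Cntnap5a -0.033, L1cam -0.021 and Ntm -0.020) and quantile normalization (Adgrl2 -0.0070 and Cntnap5a -0.015). Leaving out 1 library turned the sign in some fits for Adgrl3 (-0.019 to 0.0043), Cadm4 (-0.037 to 0.024), Cntnap5a (-0.0081 to 0.051), Lrrc41 (-0.035 to 0.026), Slitrk1 (-0.018 to 0.0094), none of them called. Pair differences turned with the GC trend removed for Clstn1 minus Clstn3 -0.060, Adgrl2 minus Adgrl3 -0.031, Ptprs minus Ptprf -0.020, Slitrk1 minus Slitrk2 -0.12, Slitrk3 minus Slitrk4 -0.068, Lrrc4b minus Lrrc4 -0.12, Lrrc4b minus Lrrc4c -0.090, Cadm1 minus Cadm2 -0.062, Cadm4 minus Cadm1 -0.26, Cadm4 minus Cadm2 -0.32, Ncam1 minus Ncam2 -0.089 and Ntm minus Lsamp -0.0036. The cause was not tested.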
